A study of Mus musculus with 31 samples.

Results

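Endothelial junction and barrier genes were followed across the lung arrays of 2 mouse strains given cigarette smoke, bacterial lipopolysaccharide (LPS, an endotoxin) or neither. They are 10 genes taken by name: Cdh5, Pecam1, Esam, Jam2, Cldn5, Ocln, Tjp1, Kdr, S1pr1 and Emcn. They make up 10 of the 19938 genes that the array annotation names with a single symbol, and each of them is measured by 1 probe set. All 10 were among the 14705 genes bright enough to be tested, and their lowest value was 8.77, against filter levels of 6.18 to 6.51 on the log2 intensity scale.

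The data are 31 arrays of lung tissue from male mice labelled as 6 weeks old, of the strains AKR and C57 BL/6 (C57 from here on), in 11 groups of 2 or 3. In each strain, mice that had breathed cigarette smoke or room air had LPS or its vehicle, saline, instilled into the trachea, and further mice had room air with no instillation. The instilled groups are AKR smoke LPS (2 arrays), AKR air LPS, AKR smoke saline, AKR air saline, C57 smoke LPS, C57 air LPS, C57 smoke saline and C57 air saline (3 arrays each), and room air alone is represented by AKR at 3 weeks (2 arrays), AKR at 6 weeks and C57 at 6 weeks (3 arrays each). For the instilled mice the titles name an exposure of 3 weeks and the series description one of 6 weeks, so its length is uncertain. The titles number the arrays as biological replicates, and their small number limits the precision of every value. Lung tissue holds many cell types, so fewer endothelial cells and less RNA per endothelial cell cannot be told apart in these values.

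The lining cells of blood vessels hold the barrier between blood and tissue through adherens junctions, built on VE-cadherin, and through tight junctions, built on claudins and occludin tied to the cytoskeleton by scaffold proteins. Signals from the vessel surface tune these contacts: sphingosine-1-phosphate acting through its receptor tightens them, and vascular endothelial growth factor acting through its receptor loosens them. In the lung this barrier keeps fluid and protein out of the air spaces, and its leakage is a hallmark of acute lung injury. Occludin and the scaffold ZO-1 are also made by the epithelium of airways and alveoli, so Ocln and Tjp1 are not specific to vessels.

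Kdr and Ocln were the members that were lower after LPS when both strains were averaged. Their promoters are shown together with that of Emcn, which did not pass that test, so that the sequence before each start can be compared. The sequences are the 250 bases before the gene start in RefSeq on GRCm38.p6, in the direction of transcription. Capitals mark GGAAG, or CTTCC on the opposite strand, a form of the core letters that transcription factors of the ETS family recognise. The shorter letters GGAA, which the Ocln window also holds, are not marked. The Kdr window is chr5:75978456-75978705 on the minus strand, the Ocln window is chr13:100552719-100552968 on the minus strand, and the Emcn window is chr3:137340828-137341077 on the plus strand.
Kdr: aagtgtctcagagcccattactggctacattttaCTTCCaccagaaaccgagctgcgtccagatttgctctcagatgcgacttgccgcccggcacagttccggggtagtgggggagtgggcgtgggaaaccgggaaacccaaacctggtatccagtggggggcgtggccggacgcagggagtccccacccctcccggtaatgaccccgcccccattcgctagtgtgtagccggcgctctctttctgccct
Ocln: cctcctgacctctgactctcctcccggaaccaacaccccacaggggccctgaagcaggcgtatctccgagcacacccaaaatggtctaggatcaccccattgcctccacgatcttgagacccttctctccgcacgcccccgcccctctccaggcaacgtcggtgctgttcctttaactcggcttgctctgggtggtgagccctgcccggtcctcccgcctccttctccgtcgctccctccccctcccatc
Emcn: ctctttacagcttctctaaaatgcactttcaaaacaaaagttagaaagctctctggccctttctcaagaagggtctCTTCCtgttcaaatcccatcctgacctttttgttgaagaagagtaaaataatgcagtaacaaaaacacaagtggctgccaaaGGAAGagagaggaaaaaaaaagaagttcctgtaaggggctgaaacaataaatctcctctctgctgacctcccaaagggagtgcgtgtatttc
RefSeq promoters were held for 5 of the 10 members (Cldn5, Ocln, Tjp1, Kdr and Emcn). The letters GGAAG, searched on both strands, lay in 3 of these 5, with 2 matches for Emcn, 1 for Kdr and 1 for Tjp1. They lie in 64.1% of all 32851 promoters of that length. A match is a description of letters in these windows and no measure of binding.

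Before the results, 2 facts about the arrays apply to them. The arrays fall into a set of 18, with medians from 6.96 to 7.10, and a set of 13, with medians from 6.80 to 6.90, and the smaller set holds every AKR array except those of room air at 6 weeks, so the instilled AKR and C57 groups were not compared with each other. The array labelled C57 smoke saline 3 had Saa3 and Cxcl2, genes strongly induced by LPS, at 12.47 and 11.11, and they stood at 6.06 and 5.21 on the one labelled C57 smoke LPS 3. The other 10 LPS arrays had Saa3 at 12.24 or above and the other saline or air arrays had it at 8.95 or below. This pair goes against its labels, and results that rest on it are given with and without it.

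Across the 31 arrays, Emcn (endomucin, a sialomucin of the endothelial surface) ranged over 2.26 log2 units and S1pr1 over 1.74, whereas Ocln ranged over 0.89. Cdh5, which encodes VE-cadherin, was highest in AKR air alone at 3 weeks, at 12.59 ± 0.01 (SD, n = 2), and lowest in AKR smoke saline, at 11.77 ± 0.45 (SD, n = 3). Esam, an adhesion protein of endothelial and platelet junctions, was highest in C57 air LPS at 11.19 ± 0.23 and lowest in AKR smoke saline at 10.32 ± 0.42 (SD, n = 3 each). For every member except Kdr and Ocln the 3 lowest groups were all AKR groups given saline or LPS. In the order of the 11 group means, none of the 10 neighbouring pairs of Cdh5, Esam, Tjp1 or Emcn differed by more than the larger of both SDs, and 1 pair did for Cldn5 and Ocln and 2 pairs for Pecam1, Jam2, Kdr and S1pr1. Kdr and Ocln had their LPS groups at the bottom, with AKR air LPS lowest for both, at 10.50 ± 0.19 and 8.85 ± 0.13 (SD, n = 3). These orders run over both array sets.

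**Figure D1:**
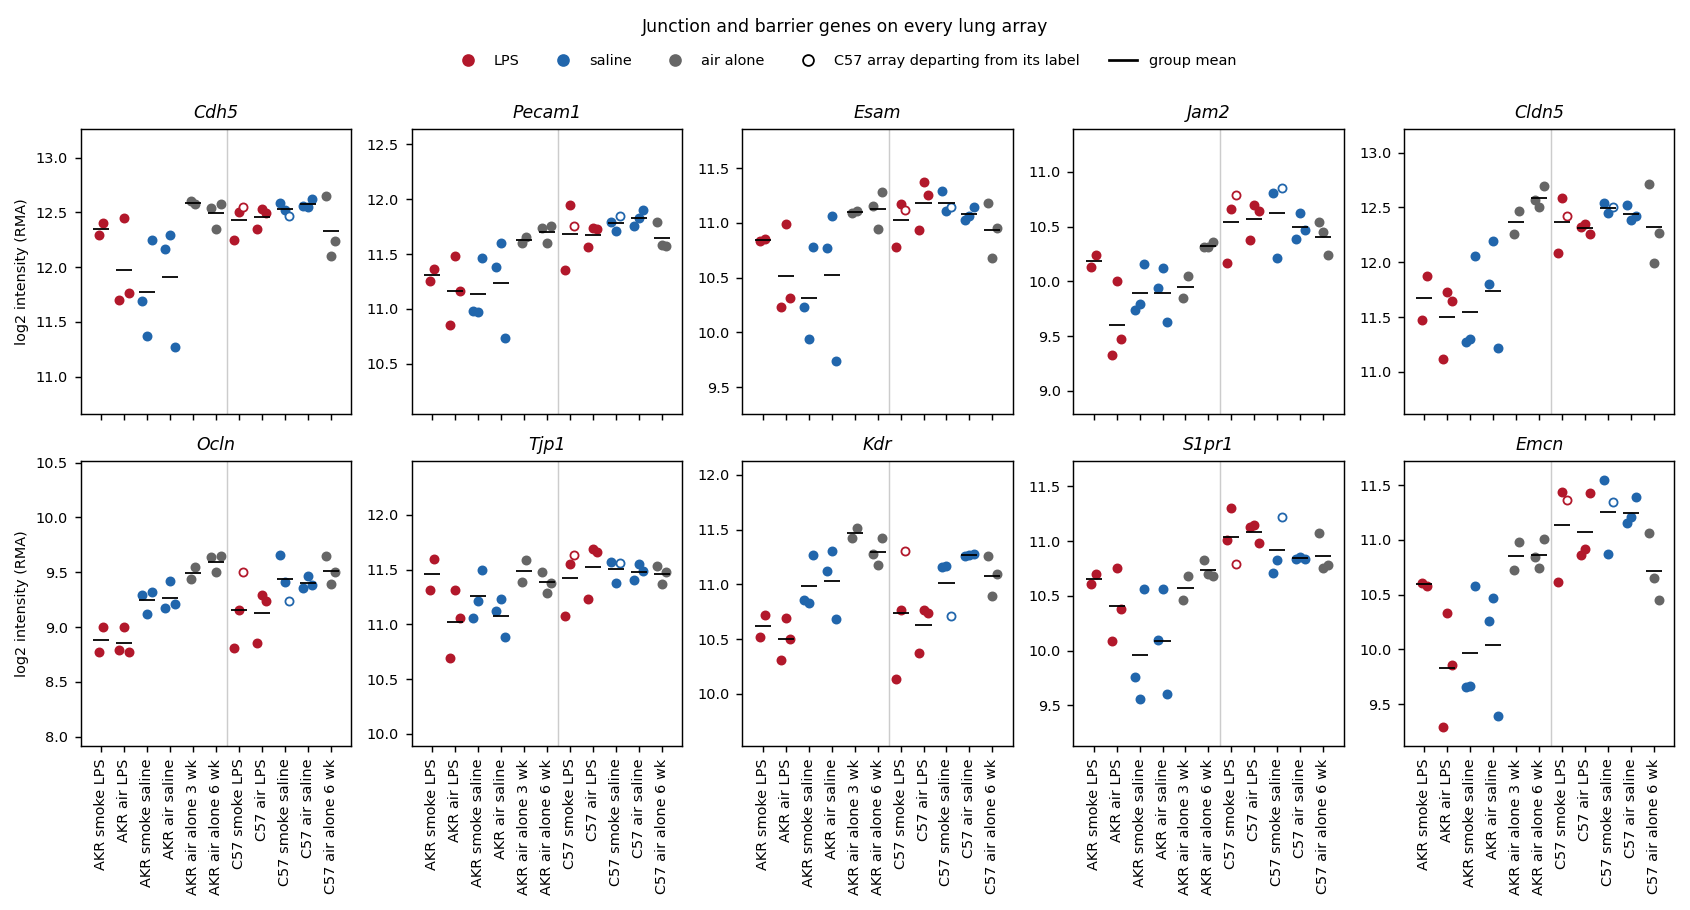
Log2 intensity of each of the 10 genes on every array (points, one panel per gene, all panels of equal height), by group on the horizontal axis, with LPS in red, saline in blue, air alone in grey and the group mean as a bar. Kdr and Ocln were lowest in the LPS groups, and the open circles are the C57 pair that departs from its labels, whose Kdr values were 11.30 for the array labelled LPS and 10.71 for the array labelled saline.

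The response to LPS after room air was measured in each strain. Kdr, which encodes the main signalling receptor for vascular endothelial growth factor, fell in C57, and Ocln, which encodes occludin, fell in AKR. Averaged over both strains, Kdr and Ocln fell and none of the other 8 genes passed, VE-cadherin, PECAM-1 and claudin-5 included. The strains' responses were not shown to differ for any of the 10.

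Kdr stood at 10.37, 10.77 and 10.74 on the C57 air LPS arrays, against 11.26, 11.27 and 11.28 on the C57 air saline arrays. Every LPS array lay below every saline array, and the saline arrays were almost identical. In AKR it stood at 10.31, 10.69 and 10.50 after LPS, against 11.12, 11.30 and 10.68 after saline, so that the lowest saline array overlapped the LPS arrays. The log2 fold change of Kdr was -0.64 ± 0.21 in C57 (SE, limma adjusted p = 0.038) and -0.53 ± 0.21 in AKR (SE, limma adjusted p = 0.079), and without the doubted pair, which enters the fit through the shared spread, the adjusted p was 0.0065 in C57 and 0.021 in AKR. In C57 the call was lost when C57 air saline 1, 2 or 3 or C57 air LPS 1 or 3 was left out (limma adjusted p from 0.064 to 0.13), and it held without C57 air LPS 2 (0.049). It was lost as well with each array centred on its median (adjusted p = 0.054).

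Ocln stood at 8.79, 9.0 and 8.77 on the AKR air LPS arrays, against 9.17, 9.42 and 9.21 on the AKR air saline arrays. The groups did not overlap in AKR. In C57 it stood at 8.85, 9.29 and 9.24 after LPS, against 9.36, 9.47 and 9.38 after saline, again with no overlap. Its log2 fold change was -0.42 ± 0.14 in AKR (SE, limma adjusted p = 0.043) and -0.28 ± 0.14 in C57 (SE, limma adjusted p = 0.18). The AKR call was lost when any 1 of the 6 AKR arrays was left out (adjusted p from 0.051 to 0.15), and without the doubted pair its adjusted p was 0.013. It was lost as well with each array centred on its median (0.053), without the filter on low values (0.056) and with only the AKR air LPS and saline arrays in the fit (0.064).

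The other members had values of both signs. In C57 the 10 log2 fold changes ran from -0.64 to 0.24 with a median of -0.13, beside -0.007 for all genes tested, and 1 of 10 was called at an adjusted p under 0.05, where 15.7% of all genes were called. In AKR they ran from -0.53 to 0.33 with a median of -0.14, beside -0.04 for all genes, and 1 of 10 was called, where 16.9% of all genes were. These shares are close to the background. The LPS arrays lay below the saline arrays without overlap for 5 of 10 members in C57 (Cdh5, Cldn5, Ocln, Pecam1 and Kdr), where 17.1% of all genes did, and for 1 of 10 in AKR (Ocln), where 17.2% of all genes did. Without the doubted pair the calls were 1 of 10 in C57, with 22.9% of all genes called, and 2 of 10 in AKR (Kdr and Ocln), with 22.7% of all genes called.

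VE-cadherin of the adherens junction and the adhesion molecules at endothelial contacts showed small values of either sign. Cdh5 had a log2 fold change of -0.12 ± 0.22 in C57 (95% interval from -0.58 to 0.34) and 0.06 ± 0.22 in AKR (-0.40 to 0.52). Pecam1, the junctional adhesion molecule also known as CD31, had -0.15 ± 0.18 in C57 and -0.07 ± 0.18 in AKR. Esam had 0.11 ± 0.25 in C57 and -0.01 ± 0.25 in AKR, and Jam2, a junctional adhesion molecule, had 0.08 ± 0.18 in C57 and -0.30 ± 0.18 in AKR. None of these passed (SE, limma adjusted p from 0.28 to 0.99). Each of their 95% intervals includes the value of Ocln in C57, -0.28, which did not pass. The errors rest on a spread pooled over both strains. Within groups the SD in AKR and C57 was 0.38 and 0.16 for Cdh5, 0.28 and 0.16 for Pecam1, and 0.42 and 0.18 for Esam. For Jam2 it was 0.23 and 0.25.

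At the tight junction, Cldn5, the main claudin of endothelium, had a log2 fold change of -0.13 ± 0.22 in C57 and -0.23 ± 0.22 in AKR. Tjp1, which encodes the scaffold ZO-1, had 0.05 ± 0.16 in C57 and -0.06 ± 0.16 in AKR. Among the surface proteins, Emcn had -0.18 ± 0.29 in C57 and -0.21 ± 0.29 in AKR, and S1pr1, a sphingosine-1-phosphate receptor, had 0.24 ± 0.22 in C57 and 0.33 ± 0.22 in AKR. None of these passed (SE, limma adjusted p from 0.33 to 0.86).

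The mean of the LPS responses of both strains, a contrast added after the data were seen, narrowed the errors. Kdr fell by 0.59 ± 0.15 on the log2 scale (SE, limma adjusted p = 0.0042) and Ocln fell by 0.35 ± 0.10 (SE, limma adjusted p = 0.011). These are 2 of 10 members, where 31.9% of all genes were called in this contrast, so the count itself is near or below the background. Kdr passed under all 23 alternatives run, and Ocln under 22 of 23, the exception being the fit with endothelial markers as a covariate (adjusted p = 0.054). The difference between the strains' responses gave 0 of 10 calls by limma, 0 of them at an unadjusted p under 0.05, with 1.14% of all genes called. For Kdr that difference was 0.11 ± 0.29 (95% interval from -0.50 to 0.71) and for Ocln it was -0.14 ± 0.20 (-0.55 to 0.27), AKR minus C57.

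**Figure D2:**
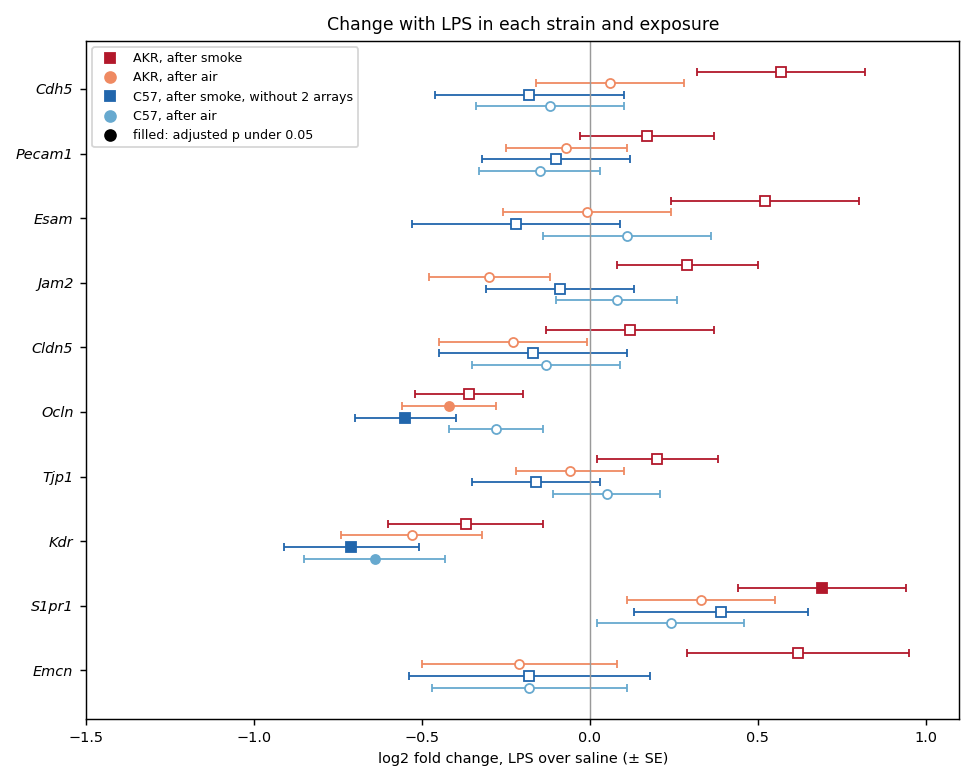
Log2 fold change of LPS over saline (horizontal axis, ± SE) for each gene, in AKR after smoke and after air and in C57 after smoke, without the pair that departs from its labels, and after air; filled symbols have a limma adjusted p under 0.05. Kdr and Ocln lie below 0 in all 4 sets, from -0.71 to -0.37 for Kdr and from -0.55 to -0.28 for Ocln, and S1pr1 lies above 0 in all 4, from 0.24 to 0.69.

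After cigarette smoke, S1pr1 rose with LPS in AKR, and in C57 no member passed with all arrays in the fit. S1pr1 stood at 10.61 and 10.70 on the AKR smoke LPS arrays, against 9.76, 9.56 and 10.56 on the AKR smoke saline arrays. The LPS arrays lay just above the highest saline array, the AKR smoke saline 3 array, which stood well above the other saline arrays. The log2 fold change was 0.69 ± 0.25 (SE, limma adjusted p = 0.035), and it was called as well without the doubted pair (adjusted p = 0.027). The call was lost when AKR smoke saline 1 or 2 or AKR smoke LPS 1 or 2 was left out (adjusted p from 0.11 to 0.17), and without AKR smoke saline 3 the log2 fold change was 1.00 (adjusted p = 0.0025). It was lost as well with quantile normalization over all arrays (adjusted p = 0.089) and with only the arrays compared in the fit (0.12).

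In the same comparison Ocln stood at 8.77 and 9.0 on the AKR smoke LPS arrays, against 9.29, 9.12 and 9.32 on the AKR smoke saline arrays. The groups did not overlap, and the log2 fold change was -0.36 ± 0.16 (SE, limma adjusted p = 0.086, and 0.039 without the doubted pair). Kdr stood at 10.52 and 10.72 after LPS, against 10.86, 10.83 and 11.27 after saline, again without overlap, with a log2 fold change of -0.37 ± 0.23 (SE, limma adjusted p = 0.25). Cdh5 had a log2 fold change of 0.57 ± 0.25 (adjusted p = 0.084), Emcn 0.62 ± 0.33 and Esam 0.52 ± 0.28 (adjusted p = 0.16 each), and the other 4 members lay between 0.12 and 0.29. In all, 1 of 10 members was called, where 31.5% of all genes were, and 2 of 10 (S1pr1 and Ocln) without the doubted pair, where 35.0% of all genes were.

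In C57 after smoke the pair that departs from its labels lies 1 in each group. Kdr stood at 10.14, 10.77 and 11.30 on the arrays labelled C57 smoke LPS, against 11.16, 11.17 and 10.71 on those labelled C57 smoke saline, where the last value of each group is the doubted array. Ocln stood at 8.81, 9.16 and 9.50 on the arrays labelled LPS, against 9.66, 9.41 and 9.24 on those labelled saline. In both genes the doubted array of each group lay on the other group's side. With all arrays limma called 0 of 10 members, 0 of them at an unadjusted p under 0.05, and 0% of all genes (0 of 14705, with 1300 at an unadjusted p under 0.05). Without the pair, Kdr had a log2 fold change of -0.71 ± 0.20 (SE, limma adjusted p = 0.014) and Ocln -0.55 ± 0.15 (SE, limma adjusted p = 0.0097), with 2 arrays in each group, and 20.7% of all genes were called. S1pr1 had 0.39 ± 0.26 there (adjusted p = 0.34).

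The level of other endothelial markers is given beside these values. It is the mean of 6 endothelial markers that are no members (Tek, Tie1, Erg, Eng, Egfl7 and Clec14a), set relative to all arrays. In C57 after air it stood at -0.27, 0.14 and 0.01 with LPS, below every saline array (0.37, 0.30 and 0.38). In AKR the LPS and saline arrays overlapped. After air they stood at -0.92, -0.22 and -0.41 with LPS, against -0.10, 0.16 and -0.88 with saline. After smoke they stood at -0.38 and -0.17 with LPS, against -0.38, -0.37 and 0.16 with saline. Of the 6, Tie1 (log2 fold change -0.54 ± 0.17, adjusted p = 0.019) and Egfl7 (-0.31 ± 0.10, adjusted p = 0.020) fell with LPS in the mean of both strains after air. A fit with this mean as a covariate, added after the data were seen, sets each member against that level. The covariate itself responds to LPS, so the fit measures each member relative to these markers.

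Relative to the markers, Kdr was lower after LPS in C57 after air (log2 difference -0.31 ± 0.10, limma adjusted p = 0.048), in AKR after air (-0.33 ± 0.10, 0.027) and in AKR after smoke (-0.30 ± 0.11, 0.035). These values are close to each other and smaller than those of the plain fit. Ocln had -0.31 ± 0.11 in AKR after air (adjusted p = 0.049), -0.33 ± 0.12 in AKR after smoke (0.036) and -0.11 ± 0.11 in C57 after air (0.51). S1pr1 had 0.74 ± 0.20 in AKR after smoke (adjusted p = 0.0065), 0.47 ± 0.18 in AKR after air (0.077) and 0.48 ± 0.19 in C57 after air (0.089). Esam passed in C57 after air, at 0.49 ± 0.14 (adjusted p = 0.028), and Cdh5, Emcn and Esam passed in AKR after smoke, at 0.64 ± 0.14, 0.71 ± 0.19 and 0.60 ± 0.14.

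With the covariate, 2 of 10 members were called in C57 after air, where 13.4% of all genes were. In AKR after air 2 of 10 were called, with 18.3% of all genes, and in AKR after smoke 6 of 10, with 36.0% of all genes. In C57 after smoke, with the doubted pair in the fit, Kdr had -0.03 ± 0.10 (limma adjusted p = 0.96) and S1pr1 0.29 ± 0.19 (0.79). There limma called 0 of 10 members (0 at an unadjusted p under 0.05) and 0% of all genes (769 at an unadjusted p under 0.05). In the mean of both strains after air the calls were 3 of 10, with 29.9% of all genes: Kdr at -0.32 ± 0.08 (SE, limma adjusted p = 0.0035), S1pr1 at 0.48 ± 0.14 (0.013) and Esam at 0.36 ± 0.10 (0.0098). Ocln had -0.21 ± 0.08 (adjusted p = 0.054).

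The doubted pair bears on this fit through the spread, through the slope of the covariate and, in C57 after smoke, through the group means. The fit was therefore repeated without both arrays. S1pr1 then passed in each comparison of LPS with saline: 0.58 ± 0.13 in C57 after air (limma adjusted p = 0.0019), 0.54 ± 0.12 in AKR after air (0.0022), 0.86 ± 0.16 in C57 after smoke (0.00059) and 0.76 ± 0.13 in AKR after smoke (9.9e-05). Kdr passed in each as well, with log2 differences from -0.36 to -0.31 and adjusted p from 0.00098 to 0.021. In this fit without the pair, S1pr1 was higher and Kdr lower after LPS relative to the markers in both strains and after both exposures. In the plain fit without the pair, S1pr1 passed only in AKR after smoke, and Kdr in all but AKR after smoke. In C57 the marker levels of LPS and saline arrays did not overlap after air or, without the pair, after smoke (-0.52 and 0.06, against 0.33 and 0.31). The C57 values of the covariate fit therefore rest on a slope shared with the AKR arrays. C57 after smoke has 2 arrays in each group in that fit. With the pair kept, Kdr passed in all of these comparisons but C57 after smoke. S1pr1 then passed only in AKR after smoke, with limma adjusted p = 0.089 in C57 after air and 0.077 in AKR after air. Ocln passed in AKR after air (-0.34 ± 0.10, 0.015) and after smoke (-0.33 ± 0.11, 0.018), and had -0.15 ± 0.10 (0.30) in C57 after air and -0.36 ± 0.13 (0.052) in C57 after smoke.

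Other members passed in some comparisons of that fit. Pecam1 had 0.35 ± 0.09 (adjusted p = 0.0069) in C57 after smoke and 0.23 ± 0.07 (0.015) in AKR after smoke, Esam 0.54 ± 0.12 (0.0019) and Tjp1 0.29 ± 0.10 (0.031) in C57 after air, and Cdh5 0.64 ± 0.13 (0.00055), Esam 0.61 ± 0.12 (0.00049) and Emcn 0.72 ± 0.18 (0.0031) in AKR after smoke. In all, 4 of 10 members were called in C57 after air, where 30.5% of all genes were, 3 in AKR after air, where 28.3% were, 3 in C57 after smoke, where 22.0% were, and 7 in AKR after smoke, where 40.4% were. In the mean of both strains after air 7 of 10 were called, where 39.7% of all genes were. Of these 7, Kdr and Ocln had values below 0, and Cdh5, Pecam1, Esam, S1pr1 and Tjp1 had values above 0.

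**Figure D3:**
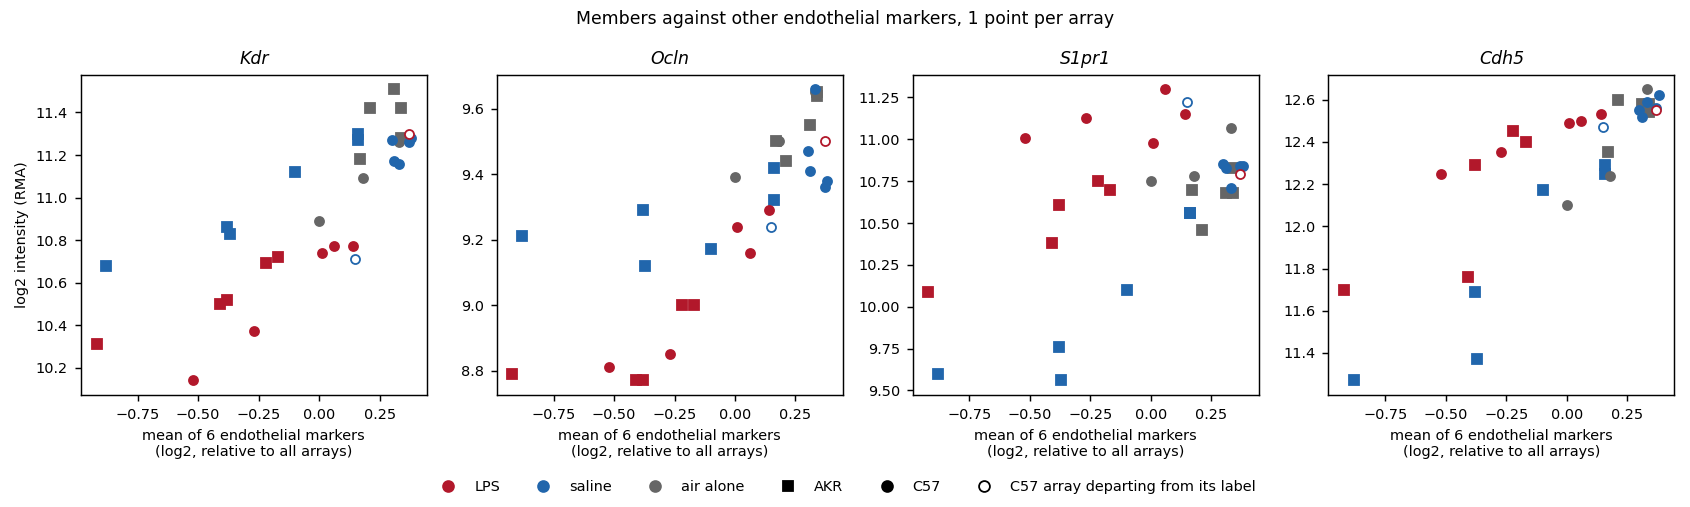
Log2 intensity of Kdr, Ocln, S1pr1 and Cdh5 (vertical axes) against the mean of 6 other endothelial markers (horizontal axes, log2 relative to all arrays), 1 point per array, squares for AKR and circles for C57, with LPS in red, saline in blue and air alone in grey. In the fit with these markers as a covariate, the log2 differences with LPS were -0.32 for Kdr and 0.48 for S1pr1 in the mean of both strains after air. In C57 after air the marker levels of the LPS arrays (-0.27 to 0.14) and saline arrays (0.30 to 0.38) do not overlap. The C57 part of these differences therefore rests on a slope shared by all arrays.

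Neutrophil markers moved with LPS beside these genes. Of 8 neutrophil markers, 8 rose in AKR after air (median log2 fold change 3.17), 8 rose in AKR after smoke (3.63) and 1 rose in C57 after air (1.65). The leukocyte markers (Ptprc, Laptm5, Coro1a and Cd52) rose, 4 of 4, in both AKR comparisons, and 0 of 4 passed in C57 after air. Of the alveolar type 1 markers 0 of 5 passed in C57 or AKR after air and 1 of 5 rose in AKR after smoke. The T cell markers Cd3g (log2 fold change 1.1 ± 0.23, limma adjusted p = 0.0019), Cd3e (0.89 ± 0.22, 0.0069) and Cd3d (0.54 ± 0.15, 0.015) rose in AKR after air. Cd2 did not pass there (0.48 ± 0.26). In AKR after smoke Cd3g alone of them rose (0.79 ± 0.26, 0.021), and in C57 after air Cd2 alone passed and fell (-0.83 ± 0.26, 0.034). The B cell markers Cd79a, Cd79b and Ms4a1 fell in C57 after air, and none passed in AKR after air or smoke. The part of all these markers in the values of Kdr, Ocln and S1pr1 was not tested.

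The effect of smoke itself was read between groups with the same instillation. With saline, the members' log2 fold changes of smoke over air ran from -0.25 to 0.13 in C57, where the lowest was Kdr at -0.25 ± 0.21 (SE), and from -0.21 to 0.18 in AKR. Limma called 0 of 10 members in either strain and 0 of 10 were under an unadjusted p of 0.05, with 0% of all genes called in C57 (906 at an unadjusted p under 0.05) and 0.0340% in AKR (944 at an unadjusted p under 0.05). The 95% intervals reached from -0.68 to 0.61 in C57 and from -0.72 to 0.53 in AKR, so changes of the size Kdr had with LPS are within them for some members. The C57 values include the array labelled C57 smoke saline 3. Without the doubted pair they ran from -0.10 (Kdr) to 0.13 (Ocln), and 0 of 10 members and 0% of all genes were called by limma.

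With LPS, all 10 members had higher means in AKR smoke LPS than in AKR air LPS, with log2 fold changes from 0.03 (Ocln) to 0.77 (Emcn) and a median of 0.28, beside 0.045 for all genes. Emcn stood at 10.61 and 10.58 on the AKR smoke LPS arrays, against 9.29, 10.33 and 9.86 on the AKR air LPS arrays. The smoke arrays agreed closely and the air arrays spread over more than a log2 unit. Limma called 0 of 10 (3 at an unadjusted p under 0.05), with 0.00680% of all genes called (2342 at an unadjusted p under 0.05), and the lowest adjusted p was that of Jam2, 0.21 at 0.59 ± 0.21. Without AKR air LPS 2, Jam2 had 0.79 and passed (adjusted p = 0.042). The 6 other endothelial markers stood at -0.38 and -0.17 on the smoke arrays, against -0.92, -0.22 and -0.41 on the air arrays, and their part in the difference was not tested. With those markers as a covariate Emcn had 0.50 ± 0.20 (adjusted p = 0.21) and Jam2 0.44 ± 0.15 (0.17), and Cdh5 had 0.16 ± 0.14 (0.59). In that fit 6 of 10 members lay above 0 and 4 below it (Kdr, Ocln, Cldn5 and Pecam1, from -0.09 to -0.04), and 0 of 10 passed limma (3 at an unadjusted p under 0.05). In C57 the values ran from -0.16 to 0.11, with 0 of 10 members called by limma (0 at an unadjusted p under 0.05) and 0% of all genes (217 at an unadjusted p under 0.05). Without the doubted pair they ran from -0.21 to 0.07, again with 0 of 10 called.

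Whether smoke altered the response to LPS was tested in AKR by the difference of both LPS responses. All 10 differences, smoke minus air, lay above 0, from 0.06 for Ocln to 0.84 ± 0.44 for Emcn, beside a median of 0.033 for all genes. Limma called 0 of 10 (1 at an unadjusted p under 0.05, Jam2 at 0.59 ± 0.28, adjusted p = 0.73) and 0% of all genes (992 at an unadjusted p under 0.05). For S1pr1, which passed after smoke and not after air, the difference was 0.37 ± 0.33 (95% interval from -0.32 to 1.05, adjusted p = 0.84). For Kdr it was 0.17 ± 0.31 (-0.48 to 0.81).

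Saline instillation was set against room air alone. In AKR all 10 members had lower means in air saline than in air alone at 3 weeks, with log2 fold changes from -0.82 (Emcn) to -0.05 (Jam2) and a median of -0.46, beside -0.036 for all genes. Cdh5 stood at 12.17, 12.29 and 11.27 on the AKR air saline arrays, against 12.58 and 12.60 on those of air alone. The third saline array stood about a log2 unit under the others. Limma called 0 of 10 members (5 at an unadjusted p under 0.05), with 0.687% of all genes called (2701 at an unadjusted p under 0.05), and the lowest adjusted p was that of Cdh5, 0.16 at -0.68 ± 0.25. The 6 other endothelial markers stood at -0.10, 0.16 and -0.88 on the saline arrays, against 0.21 and 0.31 on those of air alone. With those markers as a covariate Emcn had -0.23 ± 0.21, Cdh5 -0.23 ± 0.16 and Jam2 0.26 ± 0.16, with 7 of 10 members below 0 and 0 of 10 called by limma (0 at an unadjusted p under 0.05). The leukocyte markers Coro1a (-0.90 ± 0.20, limma adjusted p = 0.033) and Laptm5 (-0.72 ± 0.17, 0.043), the T cell marker Cd3g (-1.10 ± 0.26, 0.042) and the mural cell marker Pdgfrb (-1.07 ± 0.23, 0.032) fell, which are 2 of 4, 1 of 4 and 1 of 5 of their lists, and their part in the values was not tested.

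In C57 the values of saline over air alone ran from -0.11 to 0.53, with 0 of 10 called by limma (0 at an unadjusted p under 0.05) and 0.0136% of all genes called. There the highest was Emcn, at 11.15, 11.21 and 11.39 after saline, against 11.06, 10.65 and 10.45 in air alone. The titled exposure of these groups differs, 3 weeks for air saline and 6 weeks for air alone.

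Set against air alone in place of saline, a comparison added after the data were seen, LPS after air in AKR gave 4 of 10 calls, where 15.8% of all genes were called: Kdr at -0.96 ± 0.23 (SE, limma adjusted p = 0.0094), Ocln at -0.64 ± 0.16 (0.010), Cldn5 at -0.87 ± 0.25 (0.022) and Emcn at -1.03 ± 0.33 (0.035). In C57 it gave 1 of 10, Ocln at -0.39 ± 0.14 (adjusted p = 0.049), where 22.9% of all genes were called, and Kdr had -0.45 ± 0.21 (0.11). The LPS arrays are the same ones as in the comparison with saline. In C57 the titled exposure differs, 3 weeks for air LPS and 6 weeks for air alone, and in AKR it is 3 weeks for both.

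The strains were compared in room air alone at 6 weeks, the groups that lie in the same set of arrays. Kdr stood at 11.28, 11.18 and 11.42 in AKR, against 11.26, 10.89 and 11.09 in C57, and the groups overlapped. The members' log2 fold changes of AKR over C57 ran from -0.13 (S1pr1) to 0.26 (Cldn5), limma called 0 of 10 (0 at an unadjusted p under 0.05), and 2.69% of all genes were called. The 95% intervals ran from -0.59 to 0.75. AKR air alone at 3 weeks lies in the smaller set, and its means, such as 12.59 for Cdh5 and 11.46 for Kdr, stood beside 12.49 and 11.29 in AKR air alone at 6 weeks, without a test across the sets.

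Within groups, all 10 members varied more between arrays than the median gene. Their pooled within-group SD ran from 0.18 for Ocln to 0.38 for Emcn, beside a median of 0.16 over all genes tested. In AKR the SD was 0.38 for Cdh5, 0.42 for Esam and 0.35 for Cldn5, against 0.16, 0.18 and 0.20 in C57, whereas for Kdr it was 0.21 in AKR and 0.31 in C57 and for Ocln 0.12 in AKR and 0.22 in C57. The medians of all genes were 0.14 in AKR and 0.17 in C57. Without the doubted pair the C57 values were 0.16 for Cdh5, 0.20 for Esam, 0.23 for Cldn5, 0.21 for Kdr, the same as in AKR, and 0.18 for Ocln, beside a median of 0.15 for all genes. These spreads were not tested.

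The members' spread in AKR lay on particular arrays, and other lists stood apart on them. The mean of the 10 members, relative to all arrays, was -0.76 on AKR air LPS 1, -0.51 on AKR air LPS 3, -0.55 and -0.63 on AKR smoke saline 1 and 2, and -0.77 on AKR air saline 3. It was -0.01 and 0.02 on AKR smoke saline 3 and AKR air saline 2. On AKR air saline 3 the heart muscle markers stood at 1.76, the airway epithelial markers at 0.78, the 6 other endothelial markers at -0.88 and the alveolar type 1 markers at -0.75. On AKR air saline 2 they stood at -0.27, 0.35, 0.16 and 0.09. On all 5 arrays where the members stood below -0.50 the heart muscle markers lay above 0, and among the other AKR arrays they did so too on AKR smoke LPS 1, AKR air saline 1 and AKR air alone 6 wk 2, where the members stood at -0.22, -0.22 and 0.11. The part of these lists in the results was not tested.

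**Figure D4:**
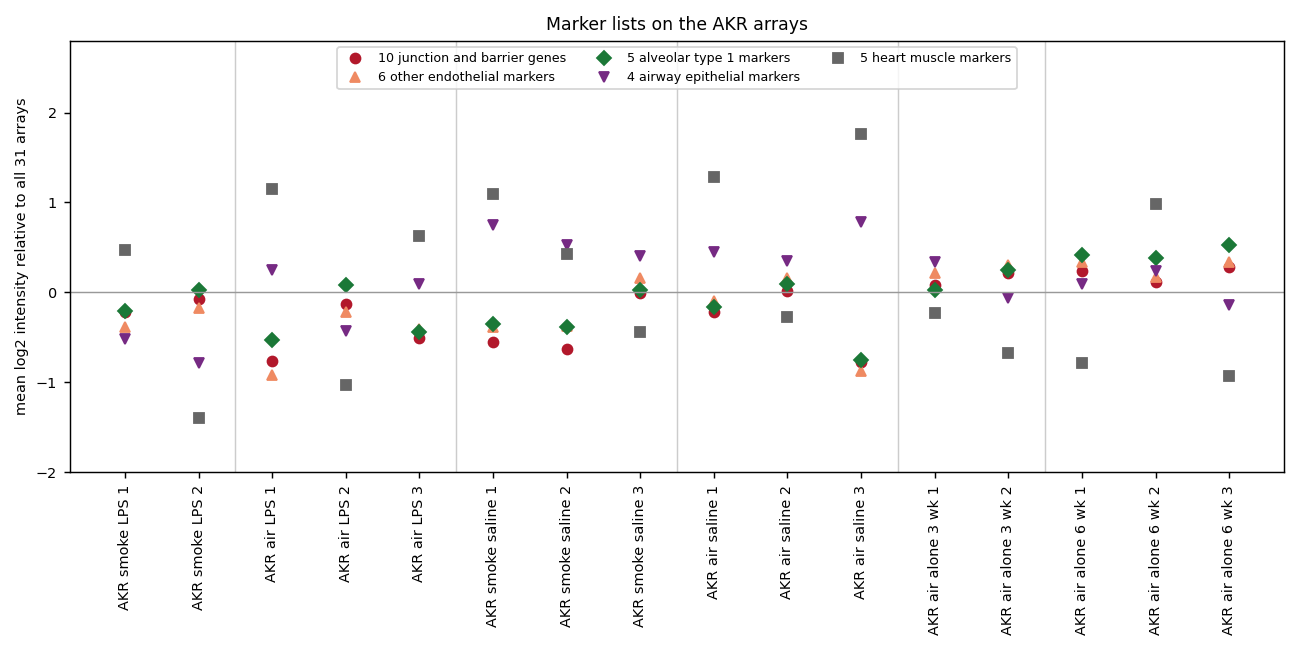
Mean log2 intensity relative to all 31 arrays (vertical axis) of the 10 junction and barrier genes and of 4 marker lists, on each AKR array (horizontal axis, grouped). The 10 genes follow the endothelial and alveolar type 1 markers, from -0.77 on AKR air saline 3 to 0.28 on AKR air alone 6 wk 3, and the heart muscle markers reach 1.76 on the array where the 10 genes are lowest.

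Over the 11 group means, Esam, Emcn and Pecam1 followed Cdh5 most closely, with Pearson correlations of 0.971, 0.928 and 0.909. Ocln and Kdr followed it least, at 0.425 and 0.359, and Kdr and S1pr1 gave -0.078 with each other. Among genes that are no members, the nearest to Cdh5 were Stambpl1 (0.980), Adgrf5 (0.976), App (0.974), Car2 (0.971) and Cnn2 (0.970). The nearest to the mean of the members were Ptprg (0.991), Tgfb2 (0.988), Bmp4 (0.984), Cds2 (0.983) and Tgfb1i1 (0.982). The 11 groups share strain, array set and part of their cell makeup, so these correlations describe the groups and carry no p.

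Other genes of the junction and its signals were followed as lists, whose counts stand beside 15.7% of all genes called in C57 after air, 16.9% in AKR after air and 31.5% in AKR after smoke. Of 33 genes of barrier signalling, 3 rose and 2 fell with LPS in C57 after air (median log2 fold change -0.07, all genes -0.007), 2 rose and 2 fell in AKR after air (median -0.16, all genes -0.04), and 5 rose and 1 fell in AKR after smoke (median 0.07, all genes -0.003). These counts are near or below those shares. Adm, which encodes adrenomedullin, a peptide that stabilises endothelial barriers, rose by 1.77 ± 0.43 in C57 after air and 2.34 ± 0.48 in AKR after smoke (log2, SE). Procr, the endothelial protein C receptor, rose by 1.15 ± 0.29 in C57 and 1.26 ± 0.29 in AKR after air. Mylk, which encodes myosin light chain kinase, fell by 0.55 ± 0.14 in C57 after air, fell by 0.52 ± 0.14 in AKR after air and fell by 0.77 ± 0.16 in AKR after smoke. Of the genes that act around S1pr1, Spns2, the sphingosine-1-phosphate exporter, fell by 0.84 ± 0.23 in C57 after air, where Sphk1, a kinase that makes the lipid, rose by 0.93 ± 0.25 (limma adjusted p from 0.00096 to 0.017 for all of these). Angpt2, the ligand that opposes Tie2 signalling, rose by 0.91 ± 0.25 in AKR after smoke, and Nos3, endothelial nitric oxide synthase, fell by 0.43 ± 0.13 in AKR after air. Rap1b, a small GTPase of junction control, rose by 0.45 ± 0.11 in AKR after air.

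Of 16 intracellular and adhesive partners of the junction 15 were tested, and 0 passed in C57 after air (median -0.11). In AKR 2 of them fell after air (median -0.20), Pard3, a polarity scaffold, which fell by 0.45 ± 0.12, and Cgn, which encodes cingulin and fell by 0.30 ± 0.09. In AKR after smoke 2 fell, Pard3 by 0.53 ± 0.14 and Cgnl1, which encodes paracingulin, by 0.41 ± 0.13 (median -0.06). These counts are below the shares of all genes called, 15.7%, 16.9% and 31.5%. Of 29 other endothelial markers, 1 fell in C57 after air, Aplnr (the apelin receptor) at -1.45 ± 0.45 (median -0.23), 0 passed in AKR after air (median -0.19), and 3 rose and 1 fell in AKR after smoke (median 0.08). Those that rose included Robo4, an endothelial guidance receptor, at 0.76 ± 0.24 and Eng, a TGF-beta co-receptor, at 0.62 ± 0.21, and Egfl7 fell by 0.41 ± 0.16. These counts too are below the shares of all genes called.

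Of 15 genes of epithelial tight junctions, 2 rose and 1 fell with LPS in C57 after air (median -0.07), 2 fell in AKR after air (median -0.06), and 5 fell in AKR after smoke (median -0.30), near the 15.7%, 16.9% and 31.5% of all genes called there. Cldn8, an epithelial claudin, fell by 1.08 ± 0.29 in C57 after air, fell by 1.53 ± 0.29 in AKR after air and fell by 2.25 ± 0.32 in AKR after smoke. Tjp3, which encodes the scaffold ZO-3, rose by 0.82 ± 0.22 and Marveld3, a relative of occludin, rose by 0.55 ± 0.13 in C57 after air. Cldn3 fell by 0.50 ± 0.17 in AKR after air and Cldn10 fell by 1.25 ± 0.25 in AKR after smoke. The airway epithelial markers, 2 of 4 after air in each strain and 4 of 4 in AKR after smoke, fell as well, and their part in the values of Ocln was not tested.

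Of 11 proteases and glycocalyx enzymes and cores, 4 rose in C57 after air (median 0.55), 6 in AKR after air (median 0.72) and 8 in AKR after smoke (median 0.73), and 0 fell in any of these, beside 15.7%, 16.9% and 31.5% of all genes called in either direction. Mmp14, a membrane-anchored metalloproteinase, rose by 1.19 ± 0.24 and Has1, a hyaluronan synthase, by 1.26 ± 0.31 in C57 after air. Mmp8, the collagenase of neutrophils, rose by 3.20 ± 0.66 in AKR after air and 3.26 ± 0.74 in AKR after smoke, and Mmp9 by 1.42 ± 0.41 and 2.30 ± 0.46. Mmp8 is also one of the neutrophil markers that rose there. Among all 5 lists, 0 genes passed in C57 after smoke with every array in the fit, where 0 of 14705 genes passed by limma.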

How the data were processed

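Total RNA of lung tissue was labelled with biotin and hybridised by the standard Affymetrix protocol, per the labels' protocols. The values used are log2 intensities per probe set as deposited by the authors, made with RMA per the submitters' processing notes. Its version, the genome build and the annotation used by the authors are not given in the sources used here.

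Of 35556 probe sets, 23410 were listed in the platform annotation, 21789 of them with 1 symbol and 1621 with several. Probe sets with 1 symbol gave 19938 genes, and a gene with several probe sets (999 genes) took the one with the highest mean. Symbols were brought up to date by Entrez identifier, with 99.6% found in RefSeq. The 14705 genes tested exceeded, on 3 or more arrays, percentile 40 of the probe sets there. limma was fitted with 11 group means over the 31 arrays, leaving 20 residual degrees of freedom, with empirical Bayes moderation, two-sided tests and Benjamini-Hochberg adjustment over all genes tested. The threshold was an adjusted p of 0.05. Intervals are at 95%. "Rose" and "fell" are used of genes that passed. The fit was tested on simulated data.

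The members and lists were chosen with earlier results of these data known. Named are the 10 members, the 2 members of each list with the largest change in each direction among those that passed, and the 5 nearest genes by correlation. Sphk1, and Tie1 and Egfl7 in the mean of both strains, were named after their values were seen. The covariate fits, the comparison with air alone and the mean of both strains were added after the data were seen. Over 11 comparisons, the deviations of arrays that share a replicate number had correlations of -0.77 to 0.55. Every pair lay above 0.1 only in saline against air alone in C57 (3 pairs, 0.23 to 0.41) and in smoke against air with LPS in AKR (2 pairs, 0.44 and 0.54). There is no source for a pairing other than the numbers in the titles. RefSeq promoters on GRCm38.p6 were used for sequences. The work used R 4.3.3, limma 3.58.1, statmod 1.5.0, data.table (1.17.8), Python 3.11.15 and matplotlib 3.10.9.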

Additional observations from a re-analysis of the deposited data

Results flagged for a closer look

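Emcn lay on opposite sides of 0 for saline instillation in the strains, and neither value passed. In AKR its log2 fold change of air saline over air alone at 3 weeks was -0.82 ± 0.33 (SE), and every saline array (10.26, 10.47 and 9.39) lay below both arrays of air alone (10.73 and 10.98). In C57 the log2 fold change of air saline over air alone at 6 weeks was 0.53 ± 0.29 (SE), and every saline array (11.15, 11.21 and 11.39) lay above every array of air alone (11.06, 10.65 and 10.45). The limma adjusted p was 0.19 in AKR and 0.88 in C57. With 6 endothelial markers as a covariate the log2 differences were -0.23 ± 0.21 in AKR (adjusted p = 0.75) and 0.34 ± 0.17 in C57 (0.63). The difference between the strains was not tested, and the titled exposure of the air groups differs, 3 weeks in AKR and 6 weeks in C57.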

How the results depend on the processing

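The count of called members was 1 for LPS after air in C57, 1 in AKR after air, 0 in C57 after smoke and 1 in AKR after smoke. With each array centred on its median it was 0 in C57 after air and 0 in AKR after air, and in AKR after air it was also 0 without the filter on low values and 0 with only the arrays compared, as it was (0) in AKR after smoke. Without both C57 arrays that depart from their labels it was 2 in AKR after air, 2 in C57 after smoke and 2 in AKR after smoke. Array weights, whose estimate stopped before it converged, gave 2 in AKR after air (14.9% of all genes called), 3 in C57 after smoke (31.4%), 6 in AKR after smoke (47.5%), 4 for smoke over air in LPS-treated AKR lungs (against 0, with 18.1%) and 2 for AKR against C57 in air alone (against 0, with 17.4%). With endothelial markers as a covariate it was 2 in C57 after air, 2 in AKR after air and 6 in AKR after smoke. With that covariate and without the pair it was 4 in C57 after air, 3 in AKR after air, 3 in C57 after smoke, 7 in AKR after smoke and 7 in the mean of both strains (against 2). There 3 members passed with a sign opposite to the main value: Cdh5 (0.27), Pecam1 (0.15) and Tjp1 (0.19) in the mean of both strains and Pecam1 (0.35) in C57 after smoke, as log2 differences relative to the markers. With air alone in place of saline AKR after air gave 4. Leaving out 1 array at a time gave 0 to 1 for C57 after air, 0 to 1 for AKR after air, 0 to 1 for C57 after smoke, 0 to 3 for AKR after smoke and 0 to 1 for smoke over air in LPS-treated AKR lungs. With all arrays the shares of all genes called in these comparisons were, in the same order, 15.7%, 16.9%, 0%, 31.5% and 0.00680%. The shares in the fits with 1 array left out are not given here, so these counts are not read against a background. Where 1 array is left in a group the fit takes its spread from the other groups. A replicate block left the counts as they were, 1 for LPS after air in C57 and 1 in AKR after air, and changed no other call. For single members, 2459 of 2540 alternatives kept the direction of any call and the side of the threshold, 54 passed in addition, 23 no longer passed and 4 passed with the opposite sign. Most of the 2540 belong to comparisons in which the member was not called in the main fit. Of the main calls, Kdr in C57 after air passed under 11 of 18 alternatives and Ocln in AKR after air under 9 of 18. S1pr1 in AKR after smoke passed under 10 of 16. In the mean of both strains Kdr passed under 23 of 23 and Ocln under 22 of 23. Centring moved the median of all genes to 0.114 for smoke over air in LPS-treated AKR lungs. The cause of these shifts was not tested.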
